A study of Rattus norvegicus with 3 samples.

Results

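The genes described here were the rat major histocompatibility complex (MHC) genes, whose symbols begin with RT1-, together with B2m, Cd74, Tap1 and Tap2. They were chosen by symbol alone from the 23098 features of the count matrices, which gave 36 features on 35 symbols, because RT1-CE16 sits on 2 identifiers that were kept apart. By role, 22 were class I members (B2m included), 12 were class II members (Cd74 included) and 2 were the Tap genes. All 36 had a RefSeq entry under their symbol, and 34 of them lie on chromosome 20. Together they held 0.0507% of the UMIs (unique molecular identifiers, each counting 1 captured transcript) of the nuclei kept. Over the 3 libraries 23 members had at least 20 UMIs, 12 had between 1 and 19, and RT1-M5 had 0.

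Nuclei came from punches of the nucleus accumbens of outbred Wistar rats 16 weeks old, with 5 hemispheres pooled for each library and 1 library for each of 3 groups. The low anxiety and high anxiety rats had no treatment and had been sorted by behaviour in the elevated plus maze and in open field or object tests. The third library came from high anxiety rats given urolithin A for 2 months. The sources used here do not give the number of animals behind the 5 hemispheres, or their sex. Because each library pools different outbred animals, differences between those animals and differences between the groups cannot be told apart. No p-value was computed with 1 library per group, and the 95% intervals below cover counting error only. Every pair of the 3 comparisons between groups shares a library.

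Of 11424 barcodes, 10494 nuclei were kept. The low anxiety library gave 3379 of them, the high anxiety library 3694 and the urolithin A library 3421, and groups are listed in this order throughout. Their median UMI counts were 3952, 4549.5 and 4726, so the low anxiety library was the shallowest. Pairs of libraries shared 4 to 6 barcodes. Clustering gave 24 clusters, named by marker genes, so each class name below means cells like that type. The 8 classes with at least 100 nuclei in every library were D1, D2 and eccentric medium spiny neurons (MSN), GABAergic interneurons, astrocytes, microglia, oligodendrocytes and oligodendrocyte precursors. Of the 16 microglial markers 15 were detected in the microglia of every library, and Siglech was at 0. Class sizes differed, for instance 187, 202 and 388 GABAergic interneurons and 247, 156 and 125 astrocytes.

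MHC class I molecules carry peptides made inside a cell to its surface, where cytotoxic T cells read them. Each consists of a heavy chain, encoded in the rat by genes of the RT1 complex, and the light chain beta-2-microglobulin (B2m), while the transporter made of Tap1 and Tap2 brings the peptides to the heavy chain. Class II molecules, paired alpha and beta chains such as RT1-Ba with RT1-Bb and RT1-Da with RT1-Db1, show peptides from outside the cell to helper T cells. The invariant chain Cd74 escorts them, and the DM pair (RT1-DMa and RT1-DMb) exchanges the peptide. In brain tissue microglia are the best known source of both kinds, and in neurons class I molecules have been tied to synapses.

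The proximal promoters of 6 members are printed because these genes carry the results below, and they were searched for motifs known from class I and class II promoters. They are the 200 bases before the start site in RefSeq, build GRCr8, which is not the build of the count files, and they come from the reference strain and not from these rats. The 3 motifs were searched on both strands and are in capitals. CCAAT, the core bound by NF-Y, was in 29.2% of the 33469 promoters of this length. GNAAC followed by NGATG, an X-box form bound by RFX in class II promoters, was in 0.499% of them. GAAANN followed by GAAA, an interferon-response form, was in 2.74%. Where a member matched no motif, only these letters are missing from this window.
RT1-T24-3 (chr20:2722925-2723124, plus strand): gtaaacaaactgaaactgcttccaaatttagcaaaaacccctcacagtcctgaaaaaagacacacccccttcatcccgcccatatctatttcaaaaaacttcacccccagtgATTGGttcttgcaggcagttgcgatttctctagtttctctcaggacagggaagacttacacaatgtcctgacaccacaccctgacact
RT1-CE3 (chr20:3525159-3525358, minus strand): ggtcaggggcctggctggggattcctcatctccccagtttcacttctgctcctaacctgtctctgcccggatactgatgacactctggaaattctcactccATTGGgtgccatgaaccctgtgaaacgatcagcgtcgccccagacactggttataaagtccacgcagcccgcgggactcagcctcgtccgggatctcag
RT1-Da (chr20:4515215-4515414, plus strand): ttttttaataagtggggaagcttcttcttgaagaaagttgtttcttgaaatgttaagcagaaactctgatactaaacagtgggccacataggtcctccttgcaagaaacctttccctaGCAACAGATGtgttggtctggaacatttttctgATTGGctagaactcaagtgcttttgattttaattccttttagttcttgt
RT1-Db1 (chr20:4560163-4560362, minus strand): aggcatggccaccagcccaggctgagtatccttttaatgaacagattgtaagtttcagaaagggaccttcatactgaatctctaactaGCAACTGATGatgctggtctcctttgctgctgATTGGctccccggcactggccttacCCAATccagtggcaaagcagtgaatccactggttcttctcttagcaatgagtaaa
RT1-DMa (chr20:4712336-4712535, minus strand): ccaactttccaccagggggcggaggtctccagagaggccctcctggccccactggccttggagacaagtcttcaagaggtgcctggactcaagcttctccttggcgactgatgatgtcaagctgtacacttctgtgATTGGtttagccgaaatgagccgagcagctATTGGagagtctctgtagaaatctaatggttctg
B2m (chr3:129549130-129549329, plus strand): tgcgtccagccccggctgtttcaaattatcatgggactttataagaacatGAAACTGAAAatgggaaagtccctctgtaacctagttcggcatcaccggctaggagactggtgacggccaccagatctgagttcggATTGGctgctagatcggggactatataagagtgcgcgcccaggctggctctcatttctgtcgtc
Of the 30 members with a promoter entry, 4 held the X-box form: RT1-Da, RT1-Db1, RT1-Db2 and RT1-DOb. The interferon-response form was in 5, namely B2m, RT1-S2, RT1-S3, Tap1 and Tap2, and CCAAT was in 23. RT1-T24-3 and RT1-CE3 held CCAAT on the reverse strand and no other motif searched. In RT1-Da the X-box form ran from base -82 to -73 before the start and CCAAT on the reverse strand from -49 to -45. In B2m the interferon-response form ran from -150 to -141.

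The members fell into sets that were spread over the classes in different ways. Microglia held 86.7% to 91.4% of the RT1-DMa UMIs and 95.4% to 96.9% of those of RT1-DMb across libraries. The same class held 56.6% to 71.2% of the B2m UMIs and 61.7% to 72.9% of those of the main RT1-CE16 identifier (ENSRNOG00000065254). Spiny neurons held 56.6% to 68.0% of the RT1-T24-3 UMIs, 59.3% to 75.3% of those of RT1-CE3 and 75.9% to 89.5% of those of RT1-M1-2, a low member with 38, 54 and 38 UMIs. RT1-S3 was split between classes, with 35.3% to 48.1% in spiny neurons and 6.96% to 13.9% in microglia.

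**Figure D1:**
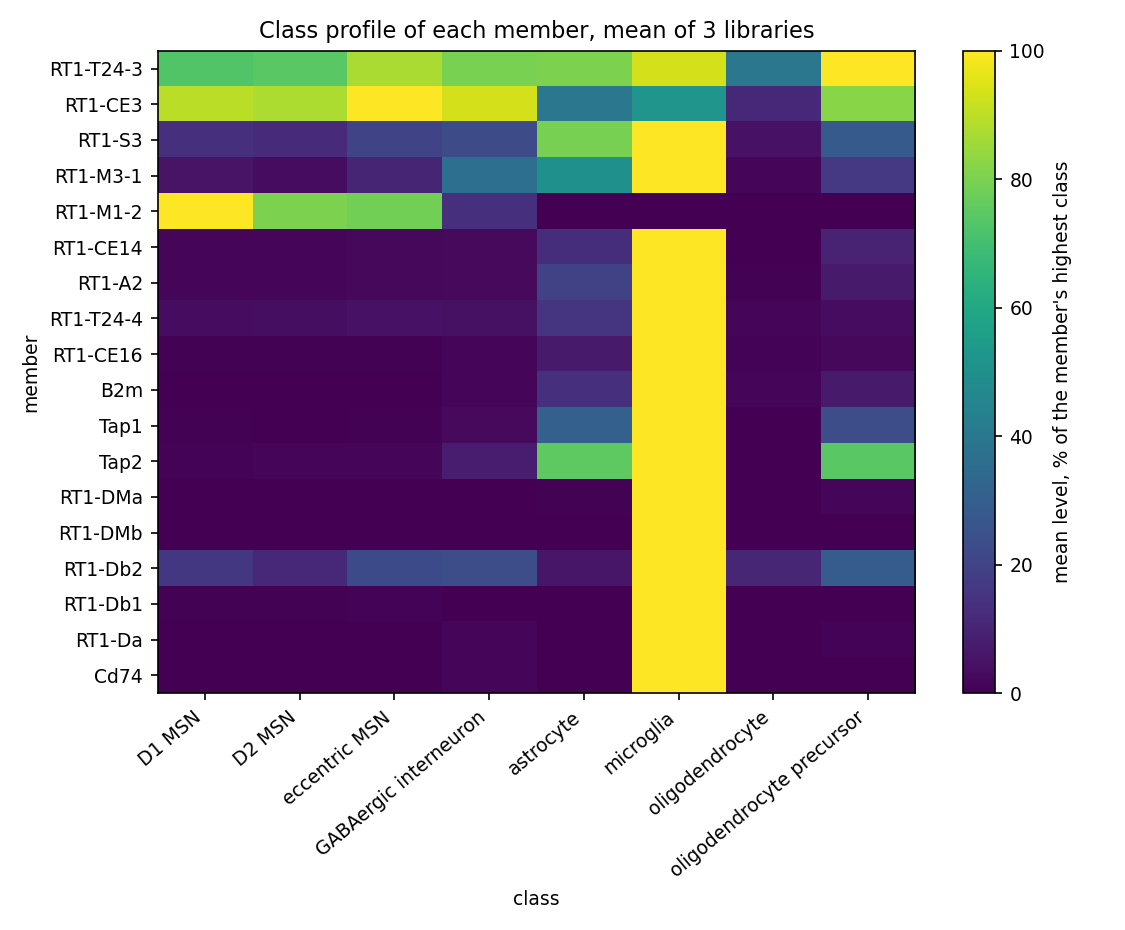
Mean level over the 3 libraries of each member with at least 100 UMIs (rows) in the 8 classes (columns), as a percent of that member's highest class. Most rows peak in microglia, RT1-M1-2 peaks in D1 neurons, and RT1-T24-3 is spread over all classes, with oligodendrocytes lowest at 39.7% of the highest class.

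To compare groups, levels were taken as a member's share of all UMIs of its class (CPM, the usual scale for counts relative to depth). A member counted as measured with at least 100 UMIs in 1 of the 2 libraries, and called means at least 1.5-fold apart, as log2 ratios of CPM. For high anxiety over low anxiety, 16 pairs of a member and a class were measured, of 6 members: 7 were called higher and 2 lower. Over all features in the same 8 classes 5.33% were called, 2.61% higher and 2.72% lower. All 7 higher pairs were RT1-T24-3, so they are 1 gene seen in 7 classes. A pair that reached 100 UMIs in 1 library only was measured through that library, which favours a difference. Of 7 such pairs 4 were called, and of the 9 pairs at or above 100 in both libraries 4 were higher and 1 lower. For urolithin A over high anxiety, 18 pairs of 7 members were measured, with 1 higher and 0 lower, against 1.86% and 1.27% of all features (3.13% in either direction). For urolithin A over low anxiety, 17 pairs of 8 members gave 8 higher and 1 lower, against 2.46% and 1.59% (4.05%). Of these, 8 pairs reached 100 UMIs in 1 library only and gave 5 of the 9 calls, and the 9 pairs at or above 100 in both gave 4 higher and 0 lower. Between urolithin A and high anxiety 13 pairs reached it in both libraries and gave the 1 call.

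**Figure D2:**
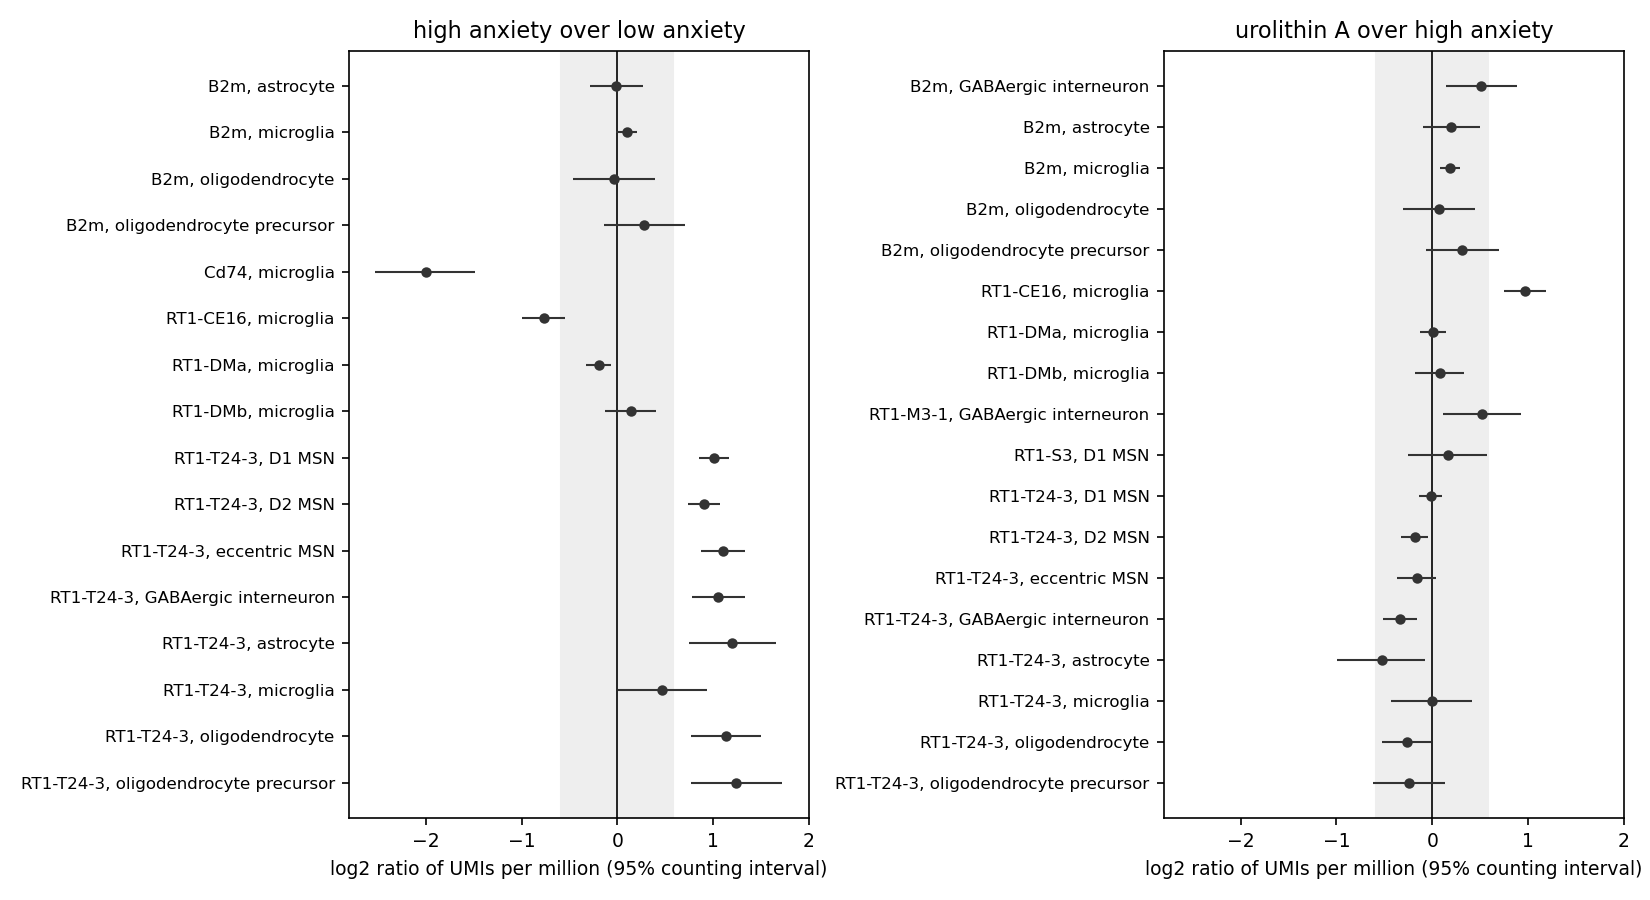
Log2 ratios of CPM with 95% counting intervals for every measured pair of member and class, in high anxiety over low anxiety (left) and urolithin A over high anxiety (right). The grey band is the range under 1.5-fold. RT1-T24-3 lies right of the band in 7 of 8 classes on the left and inside it on the right, and RT1-CE16 in microglia lies left of it (-0.77) and then right of it (0.97).

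RT1-T24-3, a class I gene of the T24 group, was lower in the low anxiety library than in the other libraries in each of the 8 classes, past the fold against high anxiety in all but microglia. In microglia the ratio was 0.46 and turned to -0.24 under a stricter nucleus filter. In D1 neurons it had 479, 1081 and 1065 UMIs, or 104, 210 and 207 CPM. The log2 ratio of high anxiety over low anxiety was 1.01 (0.85 to 1.17), the 66th largest in size of 7381 measured features. D2 neurons had 118, 221 and 194 CPM (ratio 0.90, 0.74 to 1.07) and eccentric neurons 124, 265 and 236 (1.10, 0.87 to 1.33). In all 3 the low anxiety value stood apart and the other libraries were close to each other. The eccentric class joins clusters 6, 14 and 17, and cluster 17 gave 117 of its 378 nuclei, 10 of 319 and 17 of 237. With the largest eccentric cluster only, high anxiety over low anxiety was 1.17 for RT1-T24-3.

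The same order of libraries was seen outside the spiny neurons. GABAergic interneurons had 122, 252 and 199 CPM of RT1-T24-3 (log2 ratio 1.05, 0.78 to 1.33). Cluster 7 gave 123 of their 187 nuclei, 114 of 202 and 253 of 388. Within cluster 7 the values were 126, 263 and 200 CPM. Astrocytes had 118, 270 and 187 CPM (1.20, 0.75 to 1.66), from 65, 117 and 64 UMIs. Oligodendrocytes had the lowest levels, 56.8, 124 and 103 CPM (1.13, 0.771 to 1.504), and their precursors had 134, 315 and 267 CPM (1.23, 0.77 to 1.72). Microglia had 179, 246 and 245 CPM from 59, 123 and 80 UMIs, a ratio of 0.46 (0.00 to 0.94) that was not called. Glutamatergic neurons, too few for the comparison by class with 99, 197 and 21 nuclei, had 65.5, 262 and 197 CPM.

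High anxiety was above low anxiety for RT1-T24-3 in 21 of the 21 clusters that had at least 10 nuclei in every library, and urolithin A was above low anxiety in 21 of 21. Against high anxiety, urolithin A was lower in 8 of 8 classes, by ratios between -0.53 and -0.01, none of them called. By cluster, urolithin A was above high anxiety in 5 of the same 21. D1 nuclei with at least 1 UMI of the gene made up 45.1%, 77.3% and 71.8%. With nuclei thinned to 1000 UMIs the shares were 10.4% (8.30% to 12.9%), 17.3% (14.4% to 20.4%) and 19.1% (16.3% to 22.1%). Nuclei under 1000 UMIs were left out of thinned shares, here and below. Spiny nuclei with 3 or more UMIs numbered 72 of 1722, 395 of 1525 and 276 of 1577, with a highest count of 5, 9 and 8. The difference therefore lay across many nuclei. No class lacked the gene, so no class gives its background. As a measure of free RNA, the 9 shared markers of spiny neurons summed to 9571, 10524 and 9073 CPM in D1 neurons and 764, 657 and 609 in oligodendrocytes.

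**Figure D3:**
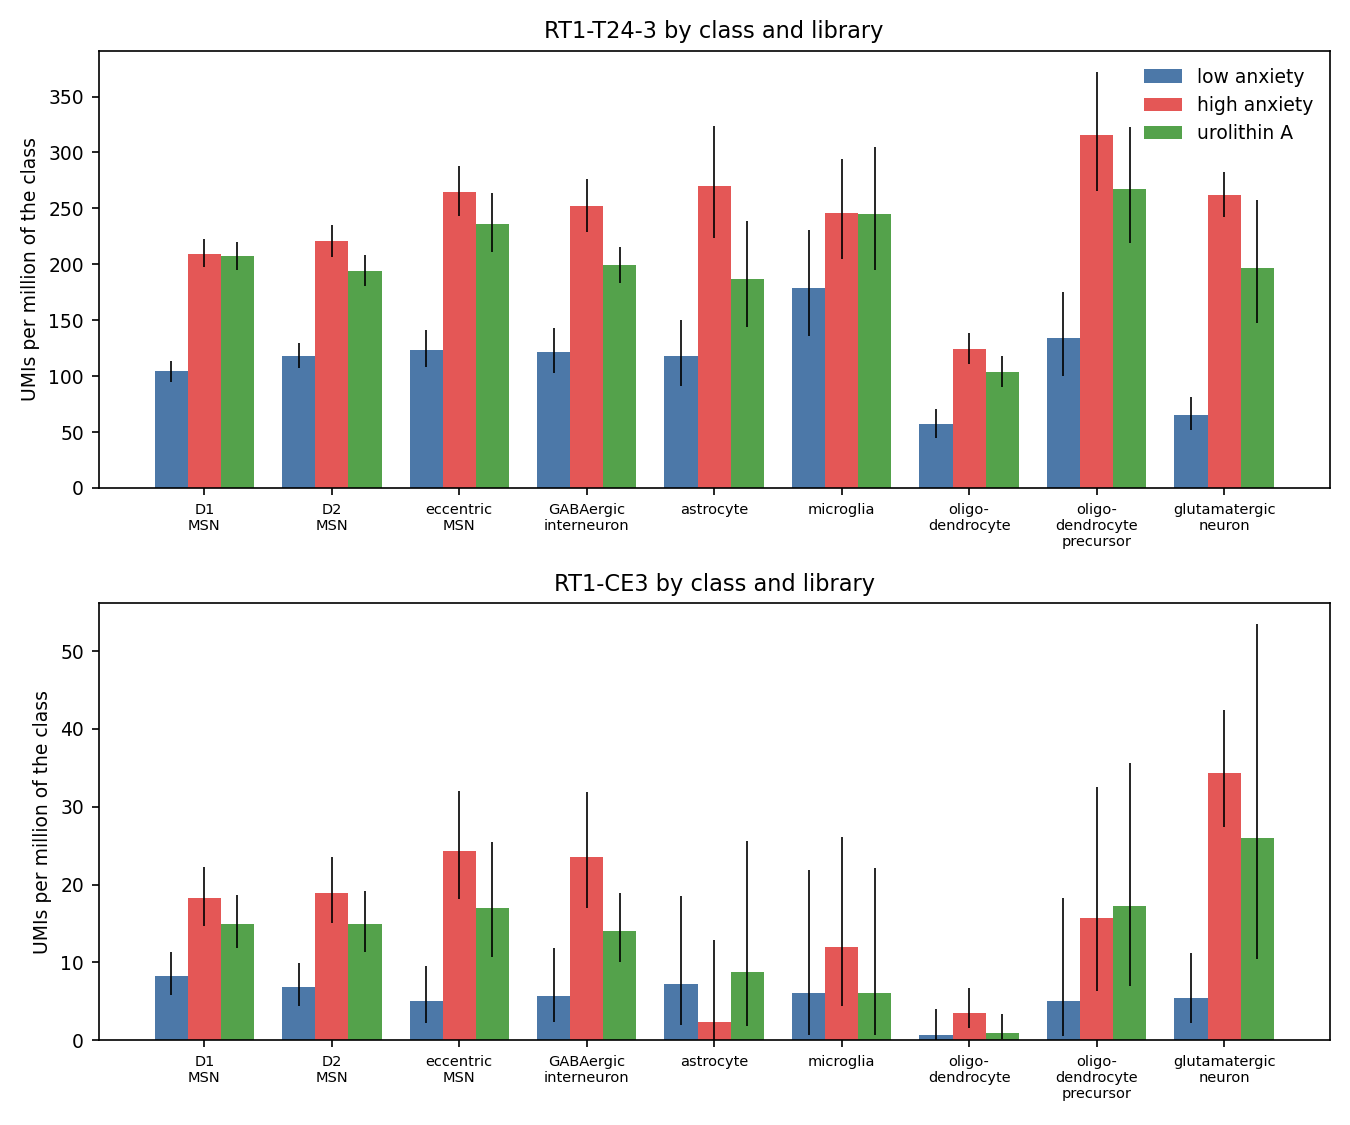
CPM of RT1-T24-3 (top) and RT1-CE3 (bottom) in the 8 classes and in glutamatergic neurons, by library, with exact Poisson 95% intervals. For RT1-T24-3 the low anxiety bar is the shortest in all 9 groups of bars, while the intervals of RT1-CE3 overlap in the glial classes, where its counts were few.

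RT1-T24-4, whose RefSeq gene overlaps RT1-T24-3, was far lower and nearly level across libraries, at 4.47, 4.11 and 4.73 CPM over all nuclei. It was densest in microglia, with 66.7, 64.1 and 92.0 CPM from 22, 32 and 30 UMIs. RefSeq also places RT1-T24-2, annotated as a long noncoding RNA, over RT1-T24-3. The sources used here do not say how reads were shared between overlapping or near-identical RT1 copies, so the split of counts within such a group is uncertain. RT1 genes also differ between haplotypes, which were not measured in these pools of outbred rats, and a read from an allele unlike the reference may be lost or counted for another RT1 gene. A difference in alleles and a difference in expression between libraries cannot be told apart for RT1-T24-3, RT1-CE3, RT1-CE16 and the other RT1 genes.

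RT1-CE3, another class I gene, was mainly neuronal and followed the same order of libraries. Over all spiny neurons it had 73, 227 and 161 UMIs, or 7.15, 19.6 and 15.2 CPM. High anxiety over low anxiety was 1.45 (1.07 to 1.86). Over all features measured in spiny neurons 4.95% were called. RT1-CE3 reached 100 UMIs in high anxiety and urolithin A but not in low anxiety, so in the ratios to low anxiety it counted as measured only through the higher library. Urolithin A over high anxiety was -0.37 (-0.67 to -0.070), not called, where 1.76% of features were. Among D1, D2, eccentric neurons and GABAergic interneurons, where it had under 100 UMIs in each library, low anxiety was lowest in all 4: 8.27, 6.82, 5.01 and 5.75 CPM, against 18.2, 19.0, 24.4 and 23.6 in high anxiety. Glutamatergic neurons had 5.46, 34.3 and 25.95 CPM. Spiny nuclei with a UMI made up 4.07%, 13.2% and 9.83%, against 0.142%, 0.767% and 0.216% of oligodendrocytes. The microglial gene RT1-DMa was found in 4.07%, 3.34% and 4.69% of the same spiny nuclei, and the low anxiety share of RT1-CE3 was no higher than that. Whether RT1-DMa in spiny nuclei came from free RNA was not tested, so it sets no background level for RT1-CE3. Median depths were 5617, 7219 and 6483 UMIs in spiny neurons and 1821, 2257 and 2157 in oligodendrocytes.

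RT1-S3, a nonclassical class I gene, was nearer between libraries in spiny neurons and had another order in glia. Spiny neurons had 130, 210 and 228 UMIs, or 12.7, 18.1 and 21.5 CPM. High anxiety over low anxiety was 0.51 (0.19 to 0.84), under the fold, and urolithin A over low anxiety was 0.76 (0.44 to 1.08), past it, as were 3.81% of features in spiny neurons. In astrocytes the counts were 76, 26 and 34 UMIs, or 138, 59.9 and 99.5 CPM, with low anxiety highest. That class joins clusters 8 and 23, and cluster 23 had 22, 17 and 1 nuclei. Within cluster 8 RT1-S3 was at 110, 52.5 and 100 CPM, so low anxiety and urolithin A were close there. Microglia had 154.5, 118 and 101 CPM. RT1-M3-1, another class I gene, was densest in cholinergic interneurons (137, 111 and 139 CPM in 15, 18 and 26 nuclei) and microglia (133, 136 and 141). In GABAergic interneurons it had 50.1, 41.0 and 58.6 CPM, with urolithin A over high anxiety at 0.52 (0.11 to 0.93), not called. Spiny neurons held 7.35, 8.81 and 5.85 CPM of it from 75, 102 and 62 UMIs, and urolithin A over high anxiety was past the fold there (-0.59, -1.07 to -0.12), as were 1.76% of features. It reached 100 UMIs only in high anxiety, the library where it was high. RT1-CE14 had 45.4, 38.0 and 67.4 CPM in microglia, and RT1-M1-4 had 35, 21 and 27 UMIs over all nuclei.

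The other class I and class II members were too sparse to compare. RT1-M10-1 had 5, 11 and 7 UMIs, RT1-A1 had 5, 7 and 3, and RT1-N3 had 2, 4 and 8. RT1-N2, RT1-CE15, RT1-M6-2, RT1-S2, RT1-O1 and RT1-M2 had at most 5 in any library. Among class II genes RT1-DOb, a chain of the DO molecule that modulates DM, had 6, 3 and 7 UMIs, RT1-Hb-ps1 had 8, 2 and 5, and RT1-Ha and RT1-DOa had at most 4 in any library.

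Genes other than the members that lie among the RT1 genes were looked at beside them. RefSeq lists 131 other genes between the first and last RT1- gene on chromosome 20, and 32 of them were measured in D1 neurons. For high anxiety over low anxiety 1 was called higher and 3 lower, with a median log2 ratio of -0.09, and 5.07% of all features in D1 neurons were called. The higher gene was Trim39, a ubiquitin ligase of the TRIM family, with 205, 459 and 425 UMIs, or 44.6, 89.0 and 82.7 CPM (1.00, 0.76 to 1.24). It lies 1 gene from RT1-M10-1 in the RefSeq order. Trim39 was also called higher in D2 neurons (0.68, 0.42 to 0.94) and eccentric neurons (0.85, 0.45 to 1.27), where 4.24% and 5.14% of features were called. In GABAergic interneurons it had 41.9, 61.2 and 40.0 CPM, so urolithin A over low anxiety was -0.069 (-0.55 to 0.43) there, where RT1-T24-3 had 0.71. Astrocytes (21.7, 27.7 and 20.5 CPM) and oligodendrocyte precursors (17.7, 18.0 and 17.3) had at most 12 UMIs of Trim39 in a library. In oligodendrocytes low anxiety was lowest, at 14.39, 23.09 and 27.12 CPM from 20, 59 and 58 UMIs. There high anxiety over low anxiety was 0.68 (-0.071 to 1.49) and urolithin A over low anxiety 0.91 (0.16 to 1.73). It was also lowest in microglia, at 15.15, 26.03 and 27.59 CPM from 5, 13 and 9 UMIs (0.78, -0.80 to 2.62). Neither class had enough UMIs of Trim39 to count as measured. The 3 lower genes in D1 neurons were Hsd17b8 (-1.28), Atp6v1g2 (-0.67) and Ring1 (-0.63). These 4 were named because the counts were small, after their values were seen.

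In microglia the class I gene with most UMIs after B2m was RT1-CE16 (ENSRNOG00000065254), and there high anxiety was the library that stood apart. Its counts were 351, 312 and 398 UMIs, or 1063, 625 and 1220 CPM. High anxiety over low anxiety was -0.77 (-0.99 to -0.54), the 19th largest of 860 measured features in microglia, of which 7.79% were called. Urolithin A over high anxiety was 0.97 (0.75 to 1.18), the largest of 856, of which 2.69% were called, and urolithin A over low anxiety was 0.20 (-0.01 to 0.41). Microglia with at least 1 UMI of it made up 78.3%, 57.9% and 86.4%, and after thinning to 1000 UMIs 63.5%, 41.5% and 69.5%, where the high anxiety interval (35.4% to 47.7%) did not reach either of the others. Median depth was 1599, 1889 and 1879 UMIs. The summed microglial markers were 43984, 39610 and 42467 CPM, lowest in the same library.

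High anxiety was also the lowest library for RT1-CE16 in astrocytes, with 51, 11 and 30 UMIs or 92.4, 25.4 and 87.8 CPM. GABAergic interneurons had 20.5, 9.54 and 22.3 CPM and oligodendrocyte precursors 20.2, 9.01 and 37.1, from 4 to 67 UMIs in these 2 classes. In spiny neurons low anxiety was the lowest, with 4.51, 5.53 and 5.95 CPM. The other identifier of RT1-CE16 (ENSRNOG00000047706) was lower by far, with 23, 18 and 23 UMIs or 69.7, 36.0 and 70.5 CPM in microglia. RT1-A2, a classical class I heavy chain, was nearly level in microglia at 227, 192 and 230 CPM from 75, 96 and 75 UMIs. In astrocytes it had 52.5, 57.6 and 17.6 CPM from 29, 25 and 6 UMIs, lowest in urolithin A.

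B2m, the shared light chain, was densest in microglia, at 3227, 3448 and 3921 CPM from 1065, 1722 and 1279 UMIs. It was found in 98.0%, 97.7% and 99.4% of microglia. The ratio of high anxiety over low anxiety was 0.10 (-0.02 to 0.21) and urolithin A over high anxiety 0.19 (0.08 to 0.29), neither called. Astrocytes had 462, 459 and 527 CPM, and 403, 440 and 529.5 within their cluster 8. Oligodendrocyte precursors had 210, 255 and 317, and oligodendrocytes 52.5, 51.3 and 53.8. In the precursors urolithin A over low anxiety was 0.59 (0.18 to 1.01), the only called one among the measured B2m ratios of the 8 classes, where 4.85% of features were called. It reached 100 UMIs only in urolithin A. The ratio depended on the setting: thinned to 1000 UMIs it was 1.11, and under a stricter nucleus filter 0.53 (-0.065 to 1.15), no longer past the fold. Under that filter B2m in oligodendrocytes went from -0.035 (-0.46 to 0.398) to 0.74 (-0.23 to 1.84) for high anxiety over low anxiety. The 51 nuclei of cluster 22, left unnamed with vascular genes such as Flt1 and Rgs5 among its top 10, had 1453, 814 and 2127 CPM. There 1 urolithin A nucleus of 23315 UMIs held 143 B2m, 67 RT1-T24-3 and 37 RT1-S3 UMIs.

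Spiny neurons held little B2m, 135, 80 and 84 UMIs or 13.2, 6.91 and 7.93 CPM, although RT1-T24-3 was found in 45.7%, 76.8% and 70.8% of their nuclei. The share of spiny nuclei with a B2m UMI was 7.201%, 4.72% and 4.82%, against 4.07%, 3.34% and 4.69% for RT1-DMa. It was furthest above RT1-DMa in low anxiety, but RT1-DMa sets no background level here either. High anxiety over low anxiety was -0.94 (-1.35 to -0.53) and urolithin A over low anxiety -0.74 (-1.15 to -0.33), and only low anxiety, where it was high, reached 100 UMIs. The 16 microglial markers summed to 66.4, 65.0 and 70.7 CPM in the same nuclei, and their part in these values was not tested. Thus B2m of the pooled spiny neurons was highest in low anxiety, where RT1-T24-3 and RT1-CE3 were lowest. Their clusters differed in size of the gap and in order. Eccentric cluster 6 had 19.0, 4.13 and 4.56 CPM of B2m, from 23, 7 and 5 UMIs. D2 cluster 1 had 11.3, 7.79 and 6.03 CPM, and D1 cluster 3 had 10.4, 7.37 and 6.26. In D1 cluster 2 low anxiety was not highest, with 10.5, 7.77 and 10.8 CPM. Pooled, B2m was close between high anxiety and urolithin A, with 80 and 84 UMIs.

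RT1-DMa and RT1-DMb, the peptide exchange pair of class II, were almost restricted to microglia in these counts and level across the groups. RT1-DMa had 839, 1110 and 728 UMIs in microglia, or 2542, 2222 and 2232 CPM. There high anxiety over low anxiety was -0.19 (-0.32 to -0.06) and urolithin A over high anxiety 0.01 (-0.13 to 0.14). It was present in 94.6%, 94.98% and 96.4% of microglia, and in 85.3%, 84.1% and 79.6% after thinning. RT1-DMb had 573, 631 and 665 CPM, with ratios of 0.14 (-0.13 to 0.41) and 0.08 (-0.18 to 0.33). Spiny neurons had 7.05, 4.41 and 6.98 CPM of RT1-DMa and 0.588, 0.173 and 0.378 of RT1-DMb.

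**Figure D4:**
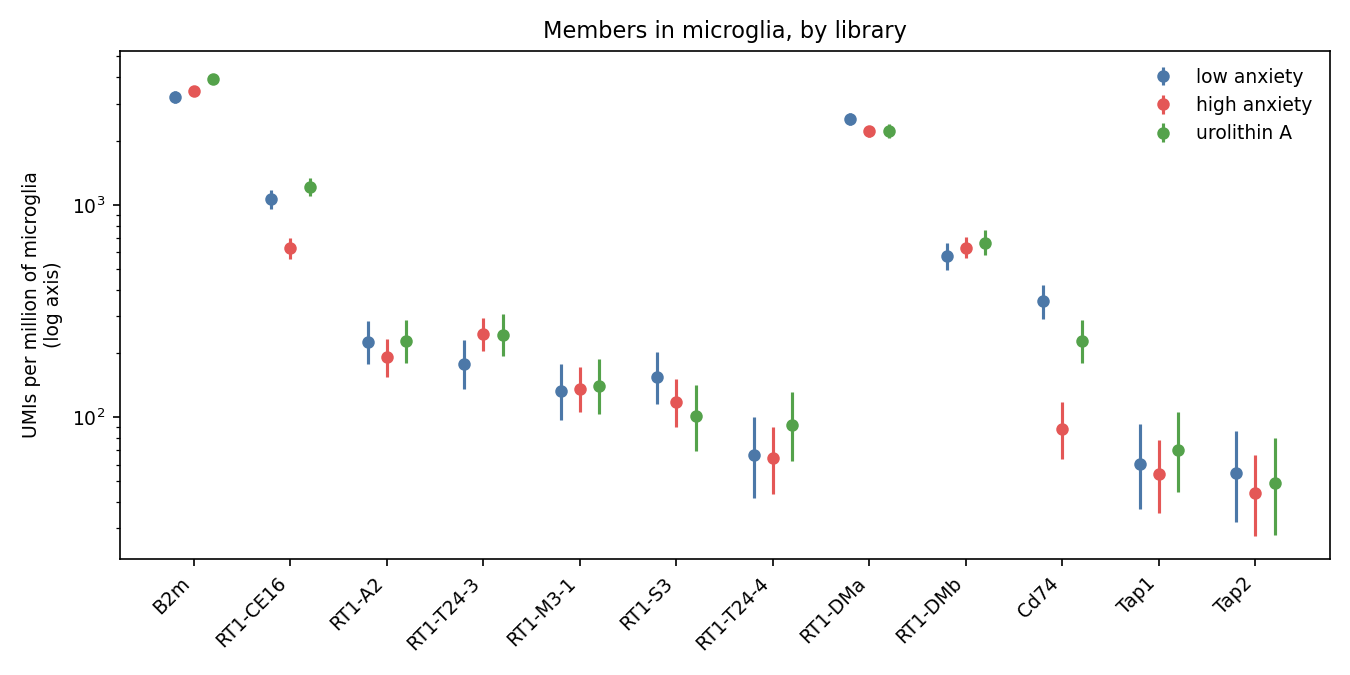
CPM of 12 members in microglia on a log axis, by library, with exact Poisson 95% intervals. B2m, RT1-DMa and RT1-DMb are nearly level, while RT1-CE16 and Cd74 dip in high anxiety, to 625 and 88.1 CPM.

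The class II genes that form or escort the surface molecule were concentrated in a few nuclei. Cd74 had 116, 44 and 75 UMIs in microglia, or 351, 88.1 and 230 CPM, and was found in 11.3%, 6.56% and 9.47% of them. Its log2 ratio of high anxiety over low anxiety, -2.00 (-2.53 to -1.48), was called, and it counted as measured only through low anxiety, the library where it was high. Cd74, RT1-Da, RT1-Db1, RT1-Ba and RT1-Bb together had 220, 84 and 170 UMIs, or 667, 168 and 521 CPM. For the sum, high anxiety over low anxiety was -1.99 (-2.37 to -1.62) and urolithin A over high anxiety 1.63 (1.25 to 2.03). RT1-Da followed the sum, with 48, 22 and 39 UMIs, and RT1-Db1 had 26, 3 and 26. RT1-Ba had 17, 14 and 26 UMIs and RT1-Bb had 13, 1 and 4. RT1-Db2, the other D beta gene, was not among them: it had 10, 7 and 5 UMIs in microglia and 50, 23 and 26 in spiny neurons.

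Nuclei with at least 3 UMIs of those 5 genes numbered 11 of 3379, 6 of 3694 and 11 of 3421, and held 86.3%, 66.4% and 88.6% of all UMIs of the 5 genes. In low anxiety 2 microglial nuclei held 79 and 77 of the 220, in high anxiety the highest held 30 of the 84, and in urolithin A the highest microglial nucleus held 87 of the 170. Without all nuclei of 3 or more, 18, 20 and 12 UMIs were left in microglia, and the ratios became -0.50 (-1.495 to 0.502) and -0.069 (-1.24 to 1.03). Those nuclei were chosen by their counts of the same 5 genes, so a smaller difference follows from leaving them out, and what is left is too few UMIs to read a difference or its absence. All 11 such nuclei of low anxiety and all 11 of urolithin A held microglial markers, and in high anxiety 5 of 6 did. Holding means at least 1 UMI, which also held for the urolithin A nucleus of a glutamatergic cluster described below. Over these 11, 6 and 11 nuclei microglial markers were at 34726, 18495 and 26343 CPM, below the 44620, 39656 and 42937 of the other microglia. In high anxiety and urolithin A these values include 1 nucleus outside the microglia. Border macrophage markers were at 0 in all of these nuclei. In the other microglia they were at 55.0, 65.9 and 58.8 CPM, a level at which so few nuclei may hold 0. Markers of T or NK cells had 0, 215 and 34.8 CPM in them, against 71.2, 70.0 and 78.5 in the other microglia. Only Skap1 of that list was found, in 4 of the 6 high anxiety nuclei and 1 of the 11 of urolithin A. One high anxiety nucleus held the dendritic cell marker Batf3.

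One such nucleus in low anxiety held all 5 B cell markers (14 UMIs). Without it the low anxiety sum was 141 UMIs and high anxiety over low anxiety was -1.35 (-1.76 to -0.95). Urolithin A over low anxiety went from -0.36 (-0.65 to -0.060) to 0.28 (-0.049 to 0.61). For Cd74 it went from -0.61 (-1.05 to -0.18), called where 3.3% of features in microglia were, to 0.050 (-0.43 to 0.54). A urolithin A nucleus in a glutamatergic cluster, with 8392 UMIs in all, held 136 UMIs of the 5 genes, more than any microglial nucleus. It held all 51 Cd74 UMIs of that class in its library, where the other libraries had 1 and 2.

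**Figure D5:**
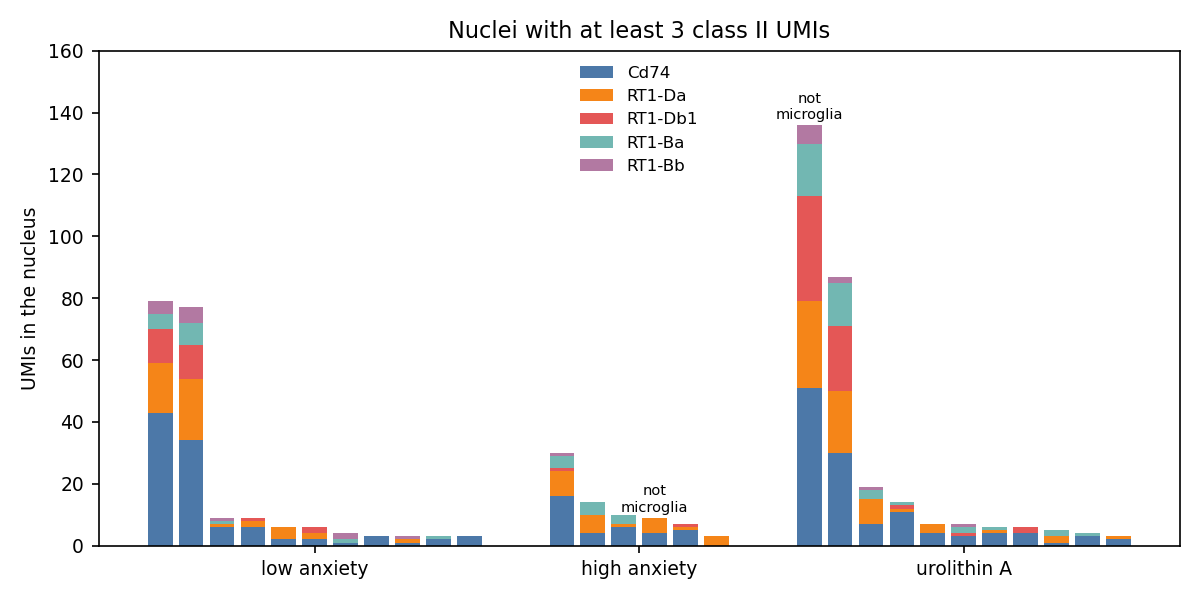
UMIs of Cd74, RT1-Da, RT1-Db1, RT1-Ba and RT1-Bb (stacked) in each nucleus with at least 3 of them, by library. Low anxiety has 2 tall bars (79 and 77), high anxiety tops out at 30, and urolithin A has 136 in a nucleus outside the microglia and 87 in a microglial one.

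The Tap genes were sparse in every class. Over all nuclei Tap1 had 44, 46 and 58 UMIs and Tap2 had 85, 60 and 59. Summed, they had 115, 98.1 and 120 CPM in microglia, 61.6, 53.0 and 52.7 in astrocytes and 55.7, 36.1 and 61.8 in oligodendrocyte precursors, with 16 to 49 UMIs behind each value. Spiny neurons had 1.27, 0.432 and 1.04 CPM. Summed over all nuclei, high anxiety over low anxiety was -0.67 (-1.05 to -0.28) with 129 and 106 UMIs, where 5.9% of all features were called. That sum mixes classes whose shares differed: astrocytes were 7.31% of nuclei in low anxiety and 4.22% in high anxiety, and glutamatergic neurons 2.93% and 5.33%. The part of these shares in the ratio was not tested. Within microglia the same ratio was -0.23 (-0.87 to 0.42), within astrocytes -0.22 (-1.05 to 0.59) and within oligodendrocyte precursors -0.63 (-1.65 to 0.37). No class reached 100 UMIs, so none of these was called.

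Other genes of antigen presentation were taken from 8 lists, with 93 of 99 genes in the files. In the 8 classes 7 of 177 measured pairs of gene and class were called for high anxiety over low anxiety, 5 of 183 for urolithin A over high anxiety and 8 of 177 for urolithin A over low anxiety. Over all features 5.33%, 3.13% and 4.05% were called. For high anxiety over low anxiety in microglia 21 were measured, 0 called higher and 1 lower, with a median of -0.13, where 7.79% of features were called. The lower one was Ctss, the cathepsin that trims the invariant chain, with 11301 UMIs in low anxiety and 10680 in high anxiety (-0.68, -0.72 to -0.64). Other class II processing genes in microglia, such as Lgmn (-0.13) and Ifi30 (-0.13), were under the fold. In D1 neurons 31 were measured and 0 were called in either direction, with a median of -0.05, against 5.07% of features. In D2 neurons 1 of 29 was called, Psmb5, a proteasome subunit (0.64, 0.28 to 1.00), against 4.24%. Astrocytes had 2 of 13 called lower, the chaperone Pdia3 (-0.69) and the cathepsin Ctsb (-0.87), where 9.17% of all features were called. Ctsb was also called lower in GABAergic interneurons (-0.74, -0.96 to -0.52) and eccentric neurons (-0.65, -0.90 to -0.39), and so was Sirpa, an inhibitory receptor, in GABAergic interneurons (-0.74). Oligodendrocytes had 0 of 27, against 3.8%. For urolithin A over high anxiety the counts were 1 higher of 32 in D1 neurons (Ifngr2, an interferon gamma receptor chain, 0.68), 0 of 30 in D2 neurons and 1 lower of 21 in microglia (Psme4, a proteasome activator, -0.71). The background was 2.02%, 2.14% and 2.69% of features. The other 3 calls of that comparison were higher: Ctsb in eccentric neurons (0.60), the chaperone Canx in GABAergic interneurons (0.61) and Cd63 in oligodendrocyte precursors (0.60). Against low anxiety, urolithin A had higher levels of the costimulatory ligand Cd80 in D1 neurons (0.90, 0.43 to 1.38) and D2 neurons (1.19, 0.66 to 1.74), each time with under 100 UMIs in low anxiety (57 and 42). Psmb5 in D2 neurons (0.75), Ifnar2 in GABAergic interneurons (0.71), Ifnar1 in eccentric neurons (0.66) and Nfyc in astrocytes (0.60) were also called higher. Marchf1 in oligodendrocytes (-0.74) and Irf2 in eccentric neurons (-0.61) were called lower. Only 1 of the 22 interferon-stimulated genes reached 100 UMIs in D1 neurons and 0 did in microglia, so that list could not be read.

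Likeness across class-by-library sums was taken as a description. Over 36 sums of 12 classes, which share library depth, the features most like RT1-T24-3 were Rbm4b (Pearson r 0.72 on log2 CPM + 1), Tnip2 (0.68), Gm10135, Sae1 and Gm17606 (each 0.65). For RT1-DMa they were the microglial genes Ncf1 (0.87) and Tmem37 (0.87), then Fcgr2a-ps1, Ms4a6a and P2ry6.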

How the data were processed

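The deposited values are UMI counts of each feature in each barcode. Per the file headers they were written by Cell Ranger 7.1.0, and the submitters' processing notes name the genome mRatBN7.2. Libraries used the Chromium chemistry version 3.1, per the labels' protocols. Empty droplets were gone (the lowest barcode total was 506), and the sources used here do not say whether free RNA was removed. Barcodes were kept from 500 genes up and up to 5% mitochondrial UMIs, and the highest Scrublet scores (0.8% per 1000 nuclei) were taken out as doublets. Clusters came from 2000 variable genes without the members and pathway genes, 30 components, 15 neighbours and Leiden resolution 1 (scanpy 1.11.5, leidenalg 0.10.2, igraph 0.11.9, seed 7). A cluster needed 3 markers at least 2-fold higher to be named. D1 neurons are clusters 2 and 3, of which 3 is the weaker name, and D2 neurons are 1, 10 and 12.

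Counts were summed by class and library and scaled to CPM. Intervals are 95%: exact Poisson for levels, Clopper-Pearson for shares, exact conditional for ratios. A count of 0 took a floor of 3. Members with at least 20 UMIs could be named with values, and of each pathway list the 2 highest and 2 lowest ratios. The ratio step was tested on simulated data. Members, lists and rules were chosen with earlier results of these data known. Gene names and neighbours came from RefSeq (GRCr8). The alternatives were other nucleus filters, doublets, clusterings, scalings, thinning and minimum UMIs. Intervals used scipy 1.17.1 and figures matplotlib 3.10.9.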

Additional observations from a re-analysis of the deposited data

Results flagged for a closer look

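Member counts also appeared in the 930 barcodes left out by the nucleus filter or as called doublets. They held 1695 class I UMIs, at 390.9 CPM against 413.2 CPM in the nuclei kept. Class II members had 323 UMIs there, at 74.5 CPM against 87.4. The Tap genes had 39 UMIs, at 8.99 CPM against 6.56. These barcodes entered no comparison above, so this signal was read only as a value.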

How the results depend on the processing

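No paired analysis was possible because each group has 1 library. With 1 library per group no library can be left out. RT1-T24-3 stayed above low anxiety in the 7 classes called, for high anxiety over low anxiety, under all 10 settings, from 0.76 (oligodendrocytes, stricter filter) to 1.86 (astrocytes, thinned). In microglia it ran from -0.24 (stricter filter) to 0.57. For urolithin A over high anxiety, the sign of RT1-T24-3 depended on the setting in some classes. It rose to 0.14 in D1 neurons (thinned), 0.12 in microglia and 0.021 in oligodendrocyte precursors (both stricter filter). In the other classes it stayed below 0 under every setting. RT1-CE16 in microglia ran from -0.88 to -0.66, and from 0.86 to 1.02 for urolithin A over high anxiety. Of 510 values of a member in a class under these settings 489 kept within the interval, 20 moved beyond it, and 1 value past the fold changed sign: Cd74 in microglia for urolithin A over low anxiety, 0.066 with doublets kept. Among the others 33 values under the fold changed sign, such as B2m in GABAergic interneurons for urolithin A over low anxiety, from -0.13 to 0.26 with the largest cluster only. Added after seeing the data, leaving out nuclei of 3 or more class II UMIs turned urolithin A over high anxiety to -0.069 for the 5 genes summed and to -0.45 for Cd74, and leaving out the nucleus with B cell markers turned Cd74 for urolithin A over low anxiety to 0.050.

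Counts of called pairs for high anxiety over low anxiety went from 9 to 4 with nuclei thinned to 1000 UMIs, which leaves 8 pairs at 100 UMIs, and those of summed roles from 4 to 2. For urolithin A over high anxiety 1 became 2 with doublets kept, and 3 without the 5 nuclei of most UMIs and with the largest cluster only. For urolithin A over low anxiety 9 became 4 under the stricter filter and 3 when thinned. Pathway counts of 7, 5 and 8 became 20, 10 and 15 at 50 UMIs, and at 200 UMIs the first and last became 4 and 1. Thinned to 2000 UMIs, which leaves out nuclei below that depth, RT1-T24-3 was in 20.8%, 37.4% and 34.0% of the D1 nuclei left. RT1-DMa was in 94.9%, 94.4% and 94.0% of the microglia left. These were the deeper microglia, as the median depth of the class was 1599, 1889 and 1879 UMIs. Such shares rise with depth by construction. Where no construction is named, the cause was not tested. Depth limits the Tap genes, RT1-CE3 and most class II genes to fewer than 100 UMIs in single classes.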
